A study of Mus musculus with 12 samples.

Results

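The genes described are the potassium channel genes of the array, taken as every symbol of the array annotation that begins with *Kcn*, apart from the imprinted non-coding RNA *Kcnq1ot1*. This rule found 83 of 18194 symbols, represented by 161 probe sets, and 73 of the 83 passed the filter on low signals and were tested among 16432 genes. Potassium channels are membrane pores that let potassium ions leave or enter the cell, and they set the resting potential and end electrical impulses in nerve, heart and muscle. Most *Kcn* genes encode pore-forming subunits, some encode silent subunits that modify a partner's pore, and others encode auxiliary proteins that bind channels from the side or the cytoplasm. In embryonic stem cells (ESCs) many genes of specialised tissues are held silent by Polycomb complexes.

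The arrays compared mouse ESCs before and after removal of *Ring1B*, an E3 ligase of Polycomb repressive complex 1 (PRC1) that adds ubiquitin to histone H2A. All lines were *Ring1A*-/-; *Ring1B* fl/fl; *Rosa26::CreERT2* cells of 129/B6 hybrid background, so by genotype the untreated (OHT-) cells also lacked *Ring1A*. 4-hydroxytamoxifen (OHT) was given at 800 nM for 24 h to delete *Ring1B*, and RNA of treated (OHT+) cells was taken on day 2 after the start. The question was which genes change when PRC1 is lost or when its catalytic subunit is inactive.

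Before treatment, each line had been stably transfected with 1 construct in a pCAG-IRES-Puro vector, so a line is 1 transfectant. The mock line carried a mock construct and was depleted of both Ring1 proteins after OHT. Lines I53S #1 and I53S #4 carried the catalytically inactive Ring1B (I53S), line I53A #1 carried Ring1B (I53A), and these 3 lines are called the mutant lines. Lines WT #1 and WT #3 carried WT Ring1B. Each of the 6 lines was measured on 1 array with OHT and 1 without, 12 arrays in all, so the line is the replicate and p-values measure the spread between these lines, with the spread of the single mock line taken from the others. The cells were grown on irradiated fibroblasts or on gelatin, and none of the sources used here says which line was on which.

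ESC markers gave signal on every array, the summed signal of 20 ESC markers lying between 15.92 and 16.16 on the log2 scale. Over its 5 probe sets, *Rnf2*, the gene of Ring1B, averaged 7.06 in OHT+ mock cells and 7.32 in OHT- mock cells, and 7.16 to 7.32 in the other OHT+ arrays against 7.11 to 7.58 in the other OHT- arrays. The 1 probe set of *Ring1*, the gene of Ring1A, was at 5.24 to 6.49 in OHT+ and 5.29 to 6.28 in OHT- arrays, so its signal does not show the loss of *Ring1A*. The sources used here do not place any of these probes with respect to what was deleted, so the signals check neither the deletions nor the constructs. In bulk RNA such as this, fewer cells of a type and less RNA per cell cannot be told apart.

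Most *Kcn* genes had weak signals before OHT. The signals below are log2 values after quantile normalization, averaged over the kept probe sets of a gene, and the median of all values in the table was 5.13. Averaged over the 6 OHT- arrays, the median *Kcn* gene was at 4.46 and the median of all genes tested at 6.10. On all 6 OHT- arrays, 9 of 73 *Kcn* genes (12.3%) were above the median of all values, against 59.7% of all genes tested. The 10 genes that did not pass the filter (*Kcnc2*, *Kcnd2*, *Kcne2*, *Kcne3*, *Kcnh5*, *Kcnip4*, *Kcnj2*, *Kcnmb4os1*, *Kcnt2* and *Kcnv2*) stayed between 2.35 and 3.66 on every array.

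The 3 *Kcn* genes with a mean signal above 7 before OHT, 4.11% of the 73 against 35.9% of all genes tested, all belonged to the *Kcnk* subfamily of leak channels, which stay open at rest. *Kcnk1* was at 8.01 to 8.69 on the 6 OHT- arrays, *Kcnk6* at 7.57 to 8.05 and *Kcnk5* at 7.04 to 7.67. The other 6 genes above the median on every OHT- array were the voltage-gated *Kcna7*, *Kcnh2* and *Kcnh3*, the inward rectifiers *Kcnj4* and *Kcnj11*, and the silent subunit *Kcns3*, with means of 5.38 to 6.36. These means are averages over the kept probe sets of a gene. For *Kcnj11*, the brighter of its 2 probe sets was at 7.94 to 8.94 on the 6 OHT- arrays and the dimmer at 3.65 to 4.61. Its brighter probe set alone thus lay above 7, so the restriction to *Kcnk* genes holds for gene averages only. A signal also depends on the probes, so genes are not ranked against each other.

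**Figure D1:**
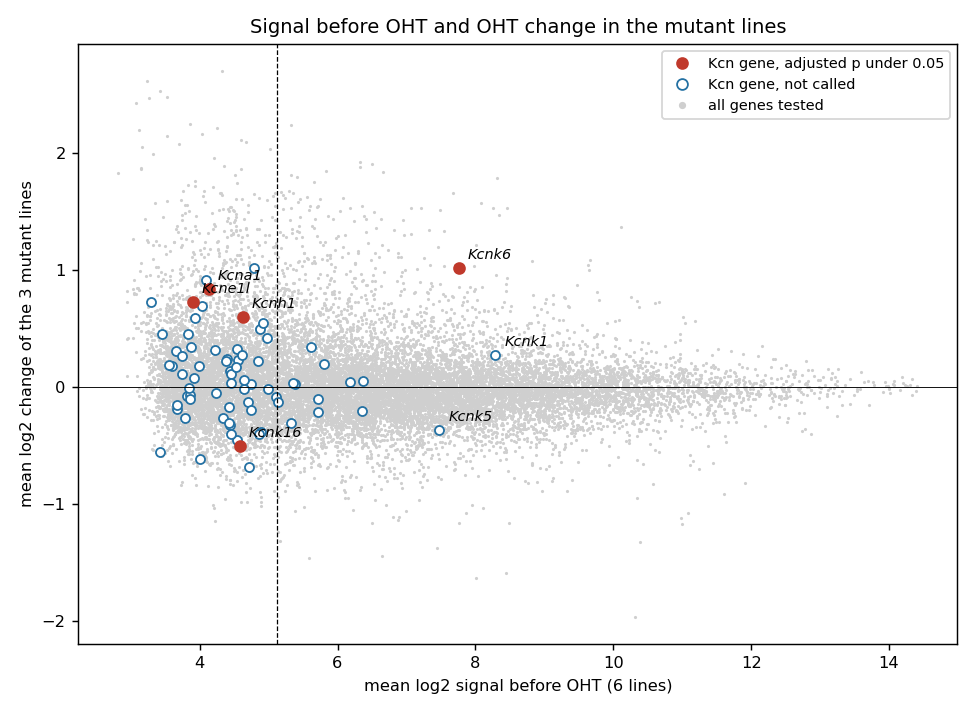
Mean log2 signal of each gene on the 6 OHT- arrays (horizontal axis) against its mean log2 change with OHT in the 3 mutant lines (vertical axis), for all 16432 genes tested (grey) and the 73 *Kcn* genes (open circles, filled where the adjusted p was under 0.05). The dashed line is the median of all values, 5.13; most *Kcn* genes lie to its left, and *Kcnk6* is the only called *Kcn* gene to its right.

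With OHT, 5 of the 73 *Kcn* genes passed the test in the mutant lines (limma, Benjamini-Hochberg adjusted p under 0.05 over all genes). *Kcnk6*, *Kcna1*, *Kcne1l* and *Kcnh1* rose and *Kcnk16* fell. Without any 1 of the mutant lines none of these 5 calls was kept, while the share of all genes called also fell, to 0.931% to 1.18%. The 5 genes are 6.85% of those tested, close to the 6.46% of all genes that passed, so the share of *Kcn* genes called was near the background. Among all genes 4.91% rose and 1.55% fell in the mutant lines. At an unadjusted p under 0.05 there were 19 *Kcn* genes (26%, against 23.7% of all genes). The 73 genes had a median mutant change of 0.05, against -0.01 for all genes, and 42 of them were above 0.

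Promoter sequences are shown for the called genes with an entry in the RefSeq promoter table (build GRCm38.p6), because Polycomb complexes in mouse ESCs are known to occupy mainly promoters rich in the dinucleotide CG. Each runs 5′ to 3′ on the gene's own strand over 300 bases, 250 before and 50 after the annotated start, and every CG is in capitals. *Kcnk6* and *Kcna1* had no entry. The windows were chrX:142306149-142306448 (minus strand) for *Kcne1l*, chr1:192190527-192190826 (plus strand) for *Kcnh1* and chr14:20269220-20269519 (minus strand) for *Kcnk16*.
Kcne1l: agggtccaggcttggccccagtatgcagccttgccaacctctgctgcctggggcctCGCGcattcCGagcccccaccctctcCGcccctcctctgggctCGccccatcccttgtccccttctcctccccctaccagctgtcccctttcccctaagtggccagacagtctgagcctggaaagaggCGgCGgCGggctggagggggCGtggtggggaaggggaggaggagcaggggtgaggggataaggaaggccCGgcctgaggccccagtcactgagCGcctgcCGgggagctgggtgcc
Kcnh1: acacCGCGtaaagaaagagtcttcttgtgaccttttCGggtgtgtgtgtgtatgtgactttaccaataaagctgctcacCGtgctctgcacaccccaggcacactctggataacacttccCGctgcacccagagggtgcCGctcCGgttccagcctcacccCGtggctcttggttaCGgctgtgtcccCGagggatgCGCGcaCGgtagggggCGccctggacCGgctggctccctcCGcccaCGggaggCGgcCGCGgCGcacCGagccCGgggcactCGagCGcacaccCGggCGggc
Kcnk16: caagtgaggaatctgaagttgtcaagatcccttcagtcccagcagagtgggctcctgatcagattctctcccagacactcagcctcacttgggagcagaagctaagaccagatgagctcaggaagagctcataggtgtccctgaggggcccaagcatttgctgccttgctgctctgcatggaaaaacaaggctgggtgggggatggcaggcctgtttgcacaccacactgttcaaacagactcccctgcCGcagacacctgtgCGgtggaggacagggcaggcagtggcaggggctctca

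The 3 windows differed widely in CG content. The *Kcnh1* window held 27 CG with an observed to expected ratio of 0.83, the *Kcne1l* window 12 with a ratio of 0.33, and the *Kcnk16* window 2 with a ratio of 0.08. By the criterion of a ratio over 0.6 and a GC content over 50%, only *Kcnh1* of the 3 was CG-rich. Of the 83 *Kcn* genes, 63 matched the table with 88 windows, and 24 of these windows (27.3%) were CG-rich, against 33.3% of all 32851 windows. In the mutant lines the median change was 0.21 for the 22 tested *Kcn* genes with a CG-rich window, 14 of them above 0, and 0.04 for the 33 with none, 19 of them above 0. This split is given as a description, and the changes of all genes were not split in this way.

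*Kcnk6* encodes a leak channel subunit of the TWIK type, each subunit of which contributes a pair of pore domains. Its signal (1 probe set) was 8.70, 8.91 and 9.03 in OHT+ cells of I53S #1, I53S #4 and I53A #1, against 7.65, 7.87 and 8.05 in their OHT- cells. The mock line had 8.55 in OHT+ and 7.57 in OHT- cells. In WT #1 and WT #3 it was 7.72 and 7.84 in OHT+ cells, against 7.83 and 7.61 in OHT- cells. The OHT+ arrays of the mutant and mock lines were thus all above their OHT- arrays, with no overlap, whereas those of the WT lines overlapped.

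The OHT change of *Kcnk6* was 1.02 ± 0.04 on the log2 scale in the mutant lines (SD, n = 3, SE of the fit 0.10, adjusted p = 0.00874), 0.99 in the mock line (adjusted p = 0.0639) and 0.06 in the WT lines (adjusted p = 0.96). The mutant change exceeded the WT change by 0.96 (SE 0.16) and the mock change exceeded it by 0.93 (SE 0.21), and neither difference passed the test (adjusted p = 0.137 and 0.19), as for every gene on the array in these 2 comparisons. The mock change was 0.03 below the mutant one (SE 0.20). Without I53S #1, I53S #4 or I53A #1 the change stayed at 1.01, 1.02 and 1.04, with an adjusted p of 0.0613, 0.0591 and 0.0567.

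*Kcne1l* encodes a single-span auxiliary subunit of the MinK family, whose members change the gating of voltage-gated pores. Its signal (1 probe set) was 4.34, 4.83 and 4.31 in OHT+ cells of I53S #1, I53S #4 and I53A #1, against 3.54, 4.04 and 3.71 in their OHT- cells. OHT+ mock cells had 3.94 and OHT- mock cells 4.21. In WT #1 and WT #3 it was 3.50 and 3.77 in OHT+ cells, against 3.81 and 4.09 in OHT- cells. Every mutant OHT+ array was above every mutant OHT- array, while the OHT+ array of the mock line and of both WT lines was the lower of its pair.

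The change of *Kcne1l* was 0.73 ± 0.11 in the mutant lines (SD, n = 3, adjusted p = 0.0137), -0.27 in the mock line (adjusted p = 0.4) and -0.32 in the WT lines (adjusted p = 0.6). The mutant and WT changes differed by 1.05 (SE 0.14, adjusted p = 0.114), the smallest adjusted p of any *Kcn* gene in this comparison, and the mock and mutant changes by -1.0 (SE 0.18, adjusted p = 0.502). The mock change of this gene thus lay beside the WT values, unlike that of *Kcnk6*. All its signals were below the median of all values. Without any 1 of the mutant lines the change was 0.70 to 0.79 and the adjusted p 0.059 to 0.0835.

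*Kcna1* encodes a Shaker-type voltage-gated pore known from nerve axons. Its signal was 4.82, 5.13 and 5.09 in OHT+ cells of I53S #1, I53S #4 and I53A #1, against 4.03, 4.43 and 4.07 in their OHT- cells. Its mock signal was 4.82 with OHT and 4.24 without it. In WT #1 and WT #3 it was 4.29 and 4.23 in OHT+ cells, against 3.86 and 4.15 in OHT- cells. The mutant OHT+ and OHT- arrays did not overlap, and the sign was positive in all 6 lines.

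The change of *Kcna1* was 0.84 ± 0.17 in the mutant lines (SD, n = 3, adjusted p = 0.0177), 0.58 in the mock line (adjusted p = 0.196) and 0.25 in the WT lines (adjusted p = 0.761). The difference of mutant from WT change was 0.59 (SE 0.18, adjusted p = 0.289). The 3 kept probe sets of this gene did not move alike: averaged over the mutant lines their changes were 1.45, 0.99 and 0.08, the last with values of -0.64 in I53S #1 and 0.76 in I53A #1. The probe set with 0.99 had a change of 1.06 in the mock line and of -0.16 and -0.28 in WT #1 and WT #3. Leaving out any 1 of the mutant lines gave a change of 0.75 to 0.91 and an adjusted p of 0.0764 to 0.0906.

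*Kcnh1* encodes a voltage-gated pore of the ether-a-go-go type. Its signal was 5.10, 5.23 and 5.19 in OHT+ cells of I53S #1, I53S #4 and I53A #1, against 4.58, 4.65 and 4.48 in their OHT- cells. OHT+ mock cells had 4.75 and OHT- mock cells 4.74. In WT #1 and WT #3 it was 5.05 and 4.61 in OHT+ cells, against 4.70 and 4.61 in OHT- cells. The mutant arrays did not overlap between OHT+ and OHT-, and the mock line and WT #3 hardly moved.

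The change of *Kcnh1* was 0.60 ± 0.10 in the mutant lines (SD, n = 3, adjusted p = 0.0323), 0.02 in the mock line (adjusted p = 0.973) and 0.18 in the WT lines (adjusted p = 0.833). Its 2 probe sets had opposite signs in the mock line, -0.56 and 0.60, and also in both WT lines. With the brighter probe set alone the mutant change was 0.42 (adjusted p = 0.154), and without renormalization of the arrays it was 0.47 (adjusted p = 0.0798). With any 1 of the mutant lines left out the change was 0.55 to 0.65 and the adjusted p 0.119 to 0.145.

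*Kcnk16* encodes a leak channel known mainly from the pancreas, and it was the only *Kcn* gene called lower. Its signal (1 probe set) was 4.29, 4.08 and 4.14 in OHT+ cells of I53S #1, I53S #4 and I53A #1, against 4.79, 4.64 and 4.60 in their OHT- cells. Its mock signal was 4.09 with OHT and 4.15 without it. In WT #1 and WT #3 it was 4.73 and 4.29 in OHT+ cells, against 4.95 and 4.36 in OHT- cells. The mutant groups did not overlap, and the lowest OHT- array of all was that of the mock line.

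The change of *Kcnk16* was -0.51 ± 0.04 in the mutant lines (SD, n = 3, adjusted p = 0.03), -0.06 in the mock line (adjusted p = 0.855) and -0.14 in the WT lines (adjusted p = 0.84). The change was -0.53 to -0.48 and the adjusted p 0.119 to 0.138 without any 1 of the mutant lines, and the adjusted p was 0.0567 without either WT line.

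**Figure D2:**
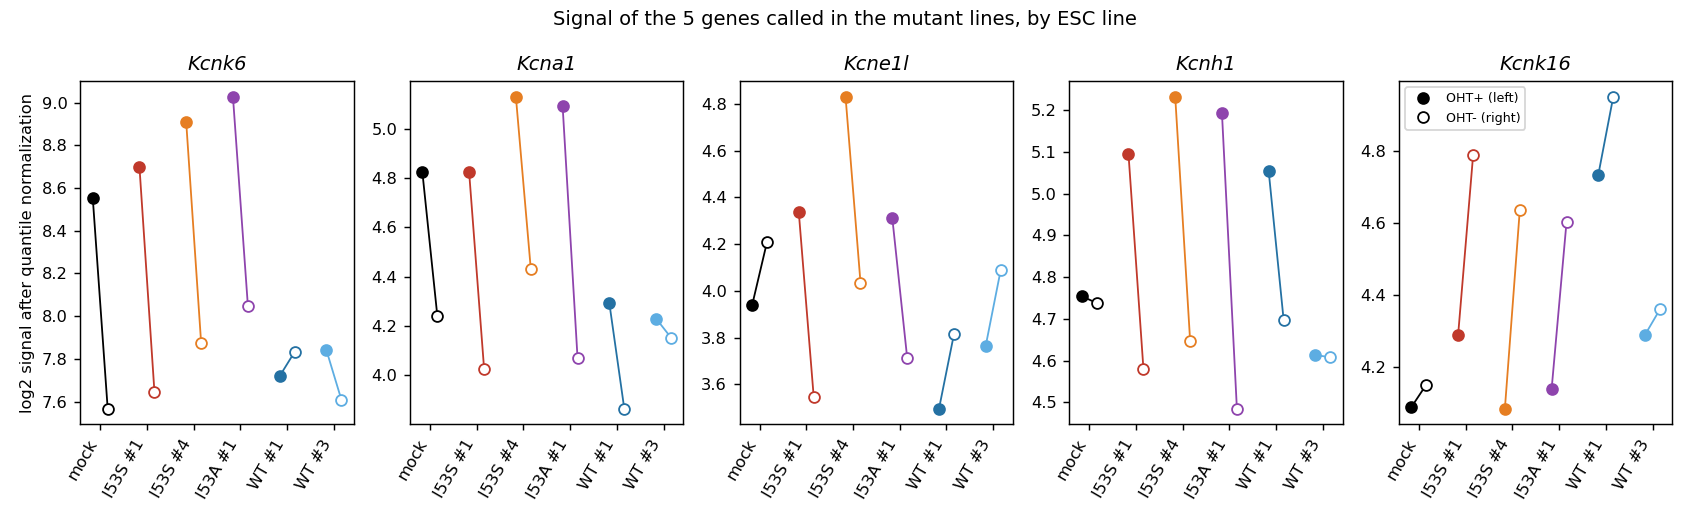
Log2 signal after quantile normalization (vertical axis, a separate scale in each panel) of the 5 *Kcn* genes called in the mutant lines, by ESC line. Filled circles are OHT+ arrays, open circles OHT- arrays and lines join the 2 arrays of a line; *Kcnk6* is higher with OHT in the mock line and the 3 mutant lines, and *Kcne1l* only in the mutant lines.

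Fibroblast markers, which feeder cells would bring, had a positive median change in the mock and mutant lines. Of 20 measured markers, 2 rose in the mutant lines (*Thy1* by 0.68 and *Lox* by 0.49; 10%, against 4.91% of all genes) and 16 were above 0, and the list had a median of 0.30 in mutant, 0.70 in mock and -0.02 in WT lines. Their summed signal was 11.82 to 12.93 in OHT+ and 11.90 to 12.47 in OHT- mutant cells, 12.95 in OHT+ and 12.63 in OHT- mock cells, and 11.82 to 12.04 in OHT+ and 11.77 to 12.04 in OHT- WT cells. *Col6a1* lay between 3.72 and 6.07 on the 12 arrays, and *Col1a2*, a fibrillar collagen gene, between 8.12 and 10.50. By mutant line, the list's median change was 0.51 in I53S #1, 0.15 in I53S #4 and 0.17 in I53A #1, and in I53A #1 the summed signal, which the brightest markers dominate, was 11.82 in OHT+ and 11.90 in OHT- cells. The part of feeder cells in the changes of the *Kcn* genes was not tested.

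In the mock line no *Kcn* gene passed the test, against 1.67% of all genes (limma). At an unadjusted p under 0.05 there were 10 (13.7%, against 19.9% of all genes). The WT lines had no call among the *Kcn* genes and 0% among all genes, and 8 *Kcn* genes (11%, against 7.61%) had an unadjusted p under 0.05. None passed for the difference of mutant from WT changes or of mock from WT changes, with a background of 0% each, and 11 (15.1%, against 12.6%) and 7 (9.59%, against 14.4%) had an unadjusted p under 0.05. Likewise none passed for mock against mutant changes (background 0%), with 7 (9.59%, against 8.05%) at an unadjusted p under 0.05.

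Without a test, the mutant changes were all above both WT changes for 11 *Kcn* genes (15.1%, against a background of 16.1%) and all below them for 7 (9.59%, against 15%). The 11 were *Kcna1*, *Kcna5*, *Kcnd3*, *Kcne1l*, *Kcnh1*, *Kcnip3*, *Kcnj8*, *Kcnk1*, *Kcnk6*, *Kcnmb4* and *Kcnmb4os2*. The change was above 0 in every mutant line for 20 genes (27.4%, against 24%) and below 0 in every one for 11 (15.1%, against 23%). These counts lay at or below the background, apart from a slightly higher count of genes above 0.

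Changes of over 1 in size were few. They were seen for 4 *Kcn* genes in the mock line (5.48%, equal to the 5.48% of all genes), 6 in I53S #1 (8.22%, against 3.98%), 4 in I53S #4 (5.48%, against 3.16%), 7 in I53A #1 (9.59%, against 3.99%), 2 in WT #1 (2.74%, against 1.85%) and 1 in WT #3 (1.37%, against 1.09%). The genes varied more between lines than others did, since the median SD of the change between the 3 mutant lines was 0.28 for the *Kcn* genes and 0.20 for all genes.

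Among the voltage-gated pores, *Kcna5*, a Shaker-type channel of heart and smooth muscle, had changes of 0.60 in I53S #1, 0.56 in I53S #4, 1.04 in I53A #1 and 0.86 in the mock line, and of 0.00 and 0.56 in WT #1 and WT #3. All 6 OHT- arrays lay between 3.15 and 3.45, and the mutant and mock OHT+ arrays between 3.93 and 4.38. Its mutant change of 0.73 missed the threshold narrowly (adjusted p = 0.0519). *Kcnh8*, of the elk type, had changes of -0.48, -0.39 and -0.97 in I53S #1, I53S #4 and I53A #1, -0.25 in the mock line, and -0.05 and 0.53 in WT #1 and WT #3 (mutant mean -0.61, adjusted p = 0.0928).

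The other voltage-gated pores singled out were less even. *Kcna2* had -0.41, -0.95 and 0.00 in I53S #1, I53S #4 and I53A #1 (mean -0.45, adjusted p = 0.207). Only 1 of its 4 probe sets passed the filter, and with all 4 averaged the mutant change was -0.11. *Kcnh7*, of the erg type, had -0.56, -0.44 and -0.22 in the mutant lines but also -0.85 in WT #1 (mutant mean -0.40, adjusted p = 0.236). *Kcna4* had a mutant mean of -0.26 (adjusted p = 0.38), with -0.86 and -0.40 in WT #1 and WT #3 (adjusted p = 0.565). Over the whole *Kcna* subfamily the mutant change ranged from -0.45 to 0.84, and 3 of its 7 genes were above 0. The *Kcnc*, *Kcnd* and *Kcnq* genes tested stayed between -0.38 and 0.26 in the mutant lines, with no call.

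The inward rectifiers, which pass potassium more easily into than out of the cell, had 14 of 15 members tested and no call. *Kcnj10*, best known from glial cells, was at 5.98, 5.99 and 5.40 in the OHT+ cells of I53S #1, I53S #4 and I53A #1, against 4.70, 4.51 and 5.09 in their OHT- cells. OHT+ mock cells had 5.28 and OHT- mock cells 4.27. In WT #1 and WT #3 it was 5.72 and 4.84 in OHT+ cells, against 5.67 and 4.50 in OHT- cells. OHT+ exceeded OHT- in each line, and WT #1 without OHT was above I53A #1 with it.

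*Kcnj10* had a mean change of 1.02 ± 0.62 in the mutant lines (SD, n = 3, adjusted p = 0.0616) and a change of 1.01 in the mock line (adjusted p = 0.243). I53A #1, at 0.32, was the low one, and without it the change was 1.38 with an adjusted p of 0.0406. Without I53S #1 the change of *Kcnj10* was 0.90 (adjusted p = 0.229), and without I53S #4 it was 0.80 (adjusted p = 0.208). *Kcnj14* had 0.24, 0.62 and 1.23 in I53S #1, I53S #4 and I53A #1 and -0.07 in the mock line (mutant mean 0.70, adjusted p = 0.118). *Kcnj15* had -1.25, 0.18 and -0.57 in these mutant lines (mean -0.55, adjusted p = 0.293, and -0.35 without the filter on low signals). The 3 mutant lines thus disagreed on size for *Kcnj10* and *Kcnj14* and on sign for *Kcnj15*.

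Some inward rectifiers had low values in the mock line. *Kcnj3*, a G protein-activated channel of heart and neurons, was at 3.55 in OHT+ and 4.71 in OHT- mock cells, a change of -1.16 (adjusted p = 0.148), and its mutant changes were -0.17, -0.24 and -0.79. These values rest on 1 of its 4 probe sets, and with no filter on low signals the mock change was -0.15 and the mutant change 0.08, of the opposite sign. *Kcnj16* had a change of -0.59 in the mock line and of 0.31 and 0.75 in WT #1 and WT #3 (mock minus WT -1.12, SE 0.30, adjusted p = 0.216). These rest on 1 of its 2 probe sets. The other, left out by the filter, had -0.29 in the mock line and -0.07 and 0.05 in WT #1 and WT #3. *Kcnj8* had -0.79 in the mock line, -0.28, 0.50 and 0.75 in I53S #1, I53S #4 and I53A #1, and -0.54 and -0.74 in WT #1 and WT #3, so the mock value was on the WT side here.

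*Kcnj11* and *Kcnj8* encode the pores of ATP-sensitive potassium channels, which open when cellular ATP is low and need a sulfonylurea receptor as partner. The partner *Abcc8* rose in the mutant lines by 1.46 (SE 0.15, adjusted p = 0.00941), the only 1 of 7 measured partner genes outside the *Kcn* symbols to pass (14.3%, against 6.46% of all genes). It was at 4.71, 5.79 and 5.70 in OHT+ cells of I53S #1, I53S #4 and I53A #1, against 3.44, 4.35 and 4.03 in their OHT- cells. The mock line had 4.38 in OHT+ and 3.58 in OHT- cells, and WT #1 and WT #3 had 4.28 and 4.11 in OHT+ cells, against 4.55 and 3.76 in OHT- cells. The mutant OHT+ arrays were above all other arrays. The pore gene *Kcnj11* was between 5.93 and 6.63 on all 12 arrays, with a mutant change of -0.20 (SE 0.11, adjusted p = 0.347). Of its 2 probe sets, the brighter had a mean mutant change of 0.005 and the dimmer, at 3.65 to 4.61, one of -0.40. The other receptor, *Abcc9*, had a mutant change of 0.14 (adjusted p = 0.73).

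The *Kcnk* leak channels held 2 of the 5 calls. *Kcnk1*, at 8.85, 8.39 and 8.17 in OHT+ and 8.53, 8.05 and 8.01 in OHT- cells of I53S #1, I53S #4 and I53A #1, had a mutant change of 0.27 (adjusted p = 0.142), and its mock change was 0.03. *Kcnk5*, an alkali-sensitive leak channel, was at 7.27, 6.66 and 7.20 in OHT+ and 7.51, 7.04 and 7.67 in OHT- cells of the same lines. Its mutant change was -0.36 (adjusted p = 0.0794), with -0.14 in the mock line and 0.04 and -0.01 in WT #1 and WT #3. Neither passed the test. The 3 mutant changes were above both WT changes for *Kcnk1*, as for 16.1% of all genes, and below both for *Kcnk5*, as for 15%. *Kcnk1* and *Kcnk5* are described for their signal before OHT, a choice made after their values were seen.

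Other leak channels had different values in the mock and mutant lines. *Kcnk4*, a mechanically gated channel of neurons, was at 5.05 in OHT+ and 4.09 in OHT- mock cells, a change of 0.96 (adjusted p = 0.458), and its changes were -1.35, 0.49 and -1.18 in I53S #1, I53S #4 and I53A #1. The mutant mean of *Kcnk4* was -0.68 (adjusted p = 0.324). Without I53S #4, the line of opposite sign, it was -1.26, with an adjusted p of 0.0461. It was -0.34 without I53S #1 (adjusted p = 0.709) and -0.43 without I53A #1 (adjusted p = 0.673). *Kcnk7*, an electrically silent member, was at 4.88 in OHT+ and 5.98 in OHT- mock cells, a change of -1.10 (adjusted p = 0.106), with a mutant mean of 0.04. Its OHT- mock array was the highest of the 12.

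*Kcnk13* had -0.58, -0.28 and -0.06 in I53S #1, I53S #4 and I53A #1 and 0.41 in the mock line (mutant mean -0.31, adjusted p = 0.197), where the mock change was 0.03 with no filter. Over the 12 *Kcnk* genes, all of them tested, the mutant change ranged from -0.68 to 1.02 with 6 above 0, the mock change from -1.10 to 0.99, and the WT change from -0.76 to 0.95.

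**Figure D3:**
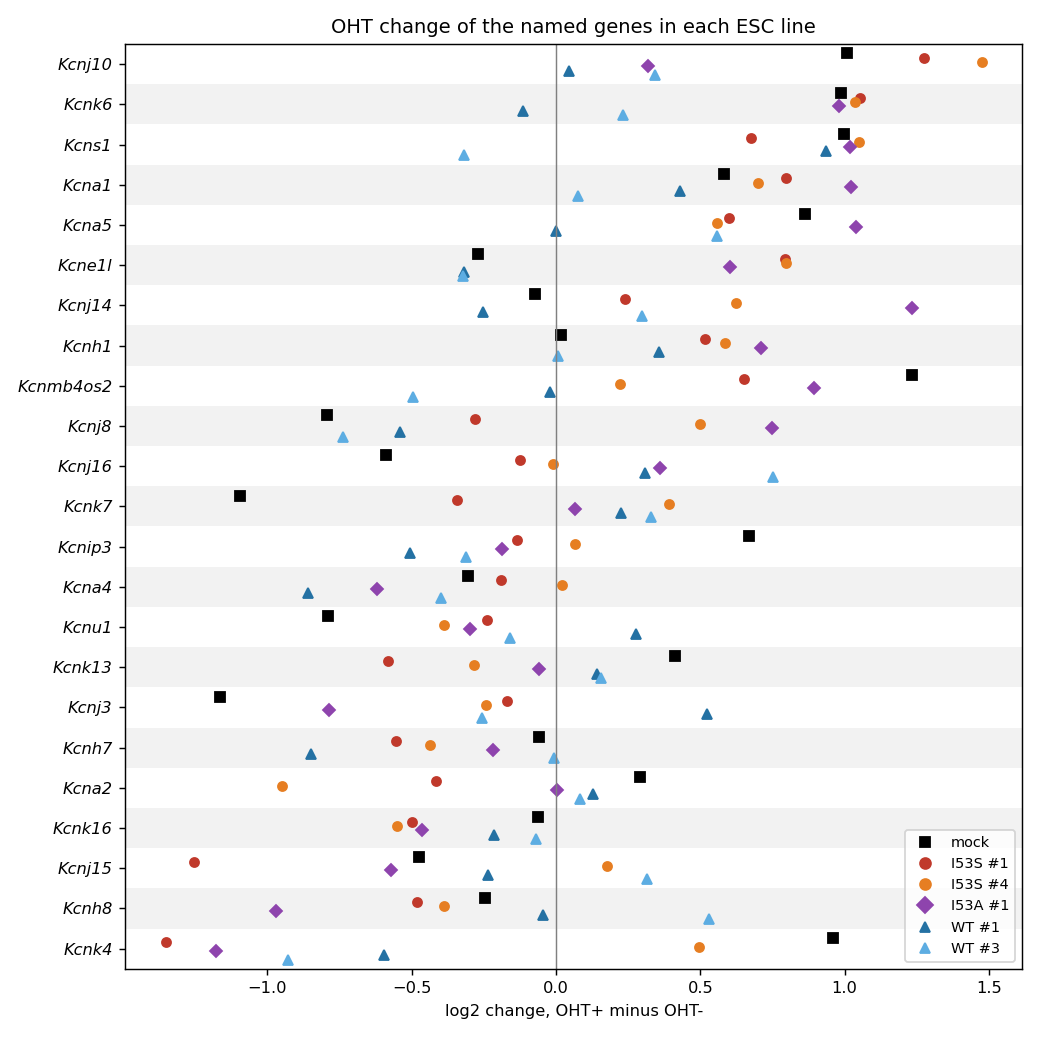
Log2 change, OHT+ minus OHT-, of the 23 named *Kcn* genes in each of the 6 ESC lines (1 array pair per line), ordered by the mean of the 3 mutant lines. The mutant points of *Kcnk6*, *Kcne1l* and *Kcnk16* lie close together, whereas those of *Kcnj10*, *Kcnj15* and *Kcnk4* are spread over more than 1 unit.

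Calcium-activated and sodium-activated pores (*Kcnma1*, the *Kcnn* genes and *Kcnt1*) stayed between -0.13 and 0.55 in the mutant lines, with no call. *Kcnu1*, a sperm-specific channel related to *Kcnma1*, was at 4.38 in OHT+ and 5.17 in OHT- mock cells, a change of -0.79 (adjusted p = 0.114), with -0.24, -0.39 and -0.30 in I53S #1, I53S #4 and I53A #1 (mean -0.31, adjusted p = 0.176). Of all 52 pore genes tested, 28 were above 0 in the mutant lines and 4 were called, with a median change of 0.04.

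The silent subunits, which form no current of their own but alter a voltage-gated partner, had 8 of 9 members tested and no call. *Kcns1* was at 4.79, 5.09 and 5.33 in OHT+ cells of I53S #1, I53S #4 and I53A #1, against 4.11, 4.04 and 4.31 in OHT- cells. The mock line had 5.15 in OHT+ and 4.15 in OHT- cells, and WT #1 and WT #3 had 4.55 and 4.04 in OHT+ cells, against 3.62 and 4.36 in OHT- cells. The mutant groups did not overlap, but WT #1 had a change of 0.93 as well. The mutant change of *Kcns1* was 0.91 (SE 0.24, adjusted p = 0.0869), and the mock change was 1.00 (adjusted p = 0.26). With any 1 of the mutant lines left out, the mutant change was 0.85 to 1.03 and the adjusted p 0.203 to 0.264. The median mutant change of the 8 silent subunits was 0.16, and 5 were above 0.

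Of the auxiliary genes 12 of 15 were tested, 8 were above 0 in the mutant lines with a median of 0.15, and *Kcne1l* was the 1 call. *Kcnip3*, a calcium-binding partner of Shal-type channels that is also known as a transcriptional repressor, was at 5.42 in OHT+ and 4.75 in OHT- mock cells, a change of 0.67 (adjusted p = 0.121), with -0.51 and -0.31 in WT #1 and WT #3. Its mock minus WT difference of 1.08 (SE 0.21, adjusted p = 0.151) had the smallest adjusted p of any *Kcn* gene in that comparison. The 2 probe sets of *Kcnip3* went apart in the mock line, with 1.53 and -0.19. The 3 *Kcnab* genes, cytoplasmic partners of Shaker-type channels, were all above 0 in the mutant lines (0.14 to 0.33), and the 3 *Kcnmb* genes, partners of *Kcnma1*, ranged from -0.20 to 0.42.

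The rule also took in *Kcnmb4os1* and *Kcnmb4os2*, which are transcripts from the strand opposite *Kcnmb4* and not channels. *Kcnmb4os2* was at 4.88 in OHT+ and 3.65 in OHT- mock cells, the largest mock change among the *Kcn* genes tested at 1.23 (adjusted p = 0.0984), and its changes were 0.65, 0.22 and 0.89 in I53S #1, I53S #4 and I53A #1 and -0.02 and -0.50 in WT #1 and WT #3 (mutant mean 0.59, adjusted p = 0.0987). *Kcnmb4* itself had 0.11 in the mock line and 0.16, 0.99 and 0.10 in the mutant lines (mean 0.42, adjusted p = 0.25).

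**Figure D4:**
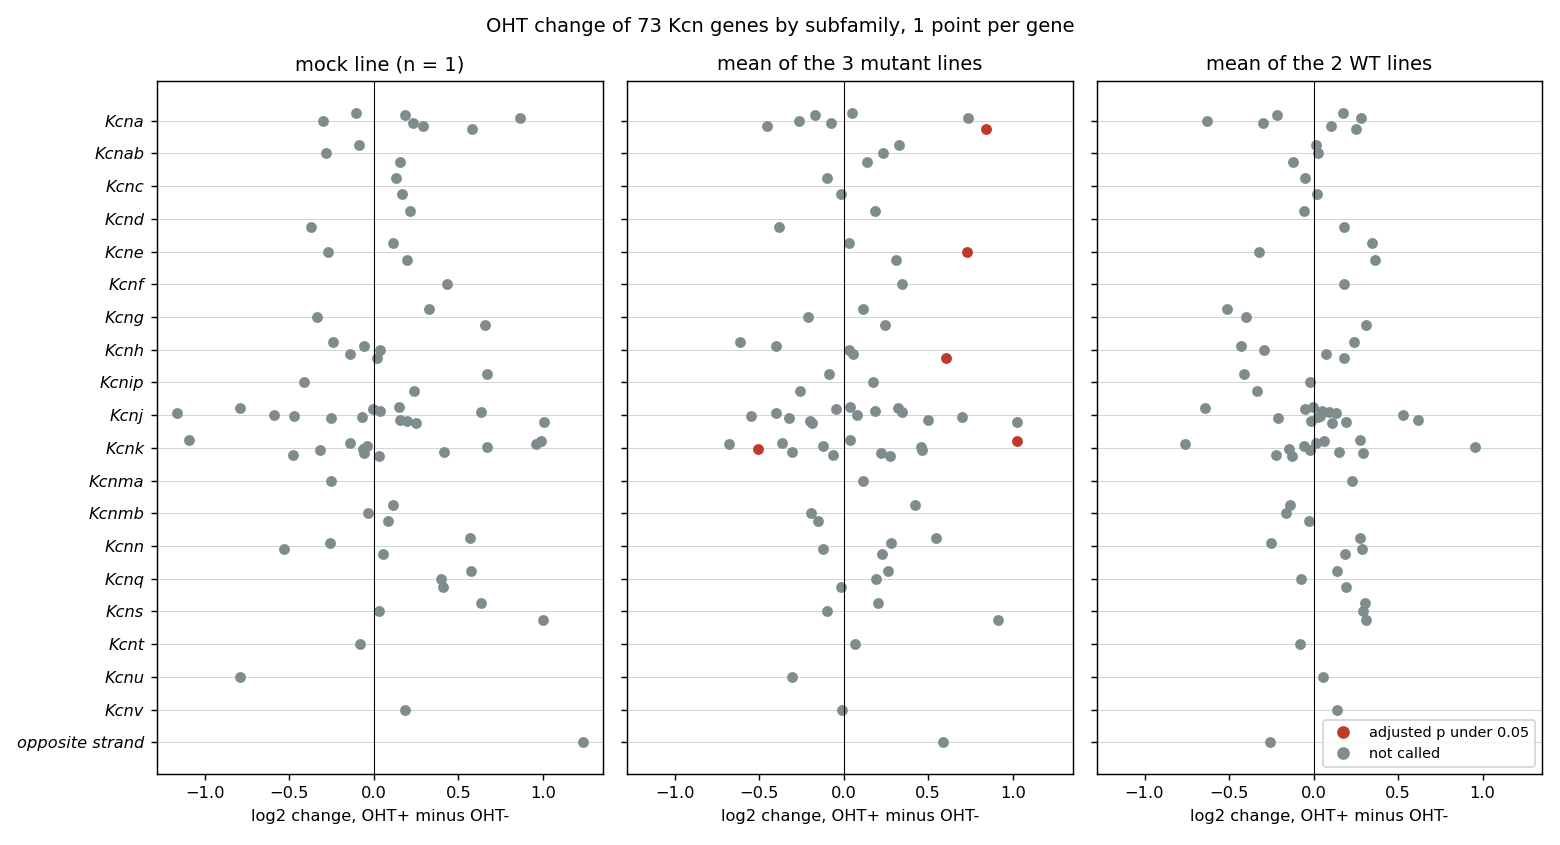
Log2 change, OHT+ minus OHT- (horizontal axis), of the 73 *Kcn* genes tested, 1 point per gene, by subfamily (vertical axis), in the mock line, averaged over the 3 mutant lines and averaged over the 2 WT lines. Red points are the 5 genes with an adjusted p under 0.05, all in the mutant panel; in every panel the *Kcna*, *Kcnh*, *Kcnj*, *Kcnk* and *Kcnn* genes lie on both sides of 0.

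The changes of the 73 genes were more alike among the mock and mutant lines than between the WT lines, as they were for all genes. Pearson's r across the 73 genes was 0.37 to 0.41 between pairs of mutant lines and 0.27 to 0.41 between the mock line and a mutant line, and it was -0.003 between the WT lines. Over all 16432 genes the same values were 0.49 to 0.51, 0.48 to 0.54 and 0.07. These are descriptions across genes, which are not independent replicates, and each change rests on 1 pair of arrays. Of the 33 *Kcn* genes with several kept probe sets, 15 had probe sets of both signs in the mean of the mutant lines, and the median gap between their highest and lowest probe set was 0.41.

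Before OHT, no *Kcn* gene passed the test for a difference of the mutant from the WT lines (limma, background 0%), and 9 (12.3%, against 5.25% of all genes) had an unadjusted p under 0.05. *Kcnj3* was at 4.61, 4.64 and 4.87 in I53S #1, I53S #4 and I53A #1, against 3.69 and 4.20 in WT #1 and WT #3, a difference of 0.76 (SE 0.20, adjusted p = 0.885). *Kcna2* differed by 0.64 and *Kcnk13* by 0.58 (adjusted p = 0.886 each), with all mutant OHT- arrays above both WT ones in each of the 3 genes. They were picked for the smallest p in this comparison, so that separation is no added support. Each value rests on 1 kept probe set, of 4 for *Kcnj3* and *Kcna2* and of 2 for *Kcnk13*. None of the probe sets left out by the filter had all mutant OHT- arrays above both WT ones. The same OHT- arrays enter the mutant changes of these genes, which were -0.40, -0.45 and -0.31.

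Genes of other ion channels and of excitable tissues were looked at in lists of fixed members. In the mutant lines 1 of 6 measured sodium channel genes fell and none rose (*Scn3a*, -0.66, adjusted p = 0.0164, and -1.23 in the mock line; 16.7%, against 1.55% of all genes lower), and none of 23 voltage-gated calcium channel genes and neither of the 2 hyperpolarization-gated channel genes passed. Of 23 terminal neuron genes 1 rose (*Celf4*, an RNA-binding protein gene, by 0.59; 4.35%, against 4.91% of all genes higher), with a list median of 0.08. Of 25 terminal muscle genes 4 rose (16%, against 4.91%), with a list median of 0.04. Among them was the cardiac myosin gene *Myh6*, which rose by 2.25, and whose change was 1.27 in the mock line and 1.00 and 0.76 in WT #1 and WT #3. The others were *Myh3* (1.33), *Myl7* (0.86) and *Myh7* (0.84). Their changes were 1.39, 1.02 and 1.12 in the mock line and lay between -0.23 and 0.22 in the WT lines. Among the 20 ESC markers 2 rose and 2 fell (20%, against 6.46% of all genes in either direction), with a list median of -0.28. *Dppa3* (1.05) and *Klf4* (0.55) were higher, and *Nr0b1* (-1.32) and *Eras* (-0.95) were lower. All genes tested had a median of -0.01 in the same comparison, and these lists were chosen with earlier results known.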

How the data were processed

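The table the authors deposited holds log2 signals of 45101 probe sets on 12 Affymetrix mouse arrays. RMA and Affymetrix Expression Console are named in the submitters' processing notes without versions, whereas the study's methods describe MAS5 signals followed by quantile normalization. Array medians as deposited were 4.66 to 5.67, so the values were quantile normalized. The 64 control probe sets were left out. Gene names came from the platform annotation, in which 34945 probe sets had 1 symbol, 932 several and 9160 none listed, and 18032 symbols matched the mouse gene table by gene ID. Probe sets with 1 symbol were kept (30374) if their highest value over the 12 arrays exceeded 3.94, the 30th percentile of the table, and the kept probe sets of a gene were averaged.

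A linear model (R 4.3.3, limma 3.58.1) with the line as a block and 1 OHT effect per class (mock, mutant, WT) was fitted to all 12 arrays, 16432 genes, with 3 residual degrees of freedom and Benjamini-Hochberg adjustment over all genes. The level before OHT was compared on the 6 OHT- arrays. OHT+ and OHT- arrays of a line were paired because they come from the same cell line, and their deviations from the class means correlated at 0.27 in the WT and 0.36 to 0.43 in the mutant lines. No 2 arrays held identical values. The fit was tested on simulated data, and 14 alternatives were tried. The number of arrays limits the precision.

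Genes named are those called, the 8 highest and 6 lowest mutant changes, the 5 highest and 5 lowest mock changes, and those with the smallest p for mutant minus WT (5), in the WT lines (3) and before OHT (3). *Kcnk1*, *Kcnk5*, *Kcnj11* and *Kcnmb4* were added after their values were seen. The members and lists were chosen with earlier results of these data known.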

Additional observations from a re-analysis of the deposited data

How the results depend on the processing

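In the mutant lines 5 *Kcn* genes were called. The count was 8 with a trended and robust prior (13.5% of all genes called, with *Kcnj10*, *Kcnk1*, *Kcnk5* and *Kcns1* gained and *Kcnk16* lost), 3 with no replicate block (*Kcna1*, *Kcnh1* and *Kcnk6*, with *Kcne1l* at an adjusted p of 0.0735 and *Kcnk16* at 0.19), and 1 when only the I53S lines formed the mutant class (*Kcnj10*). With 1 mutant line left out it was 0 without I53S #1, 1 without I53S #4 (*Kcnk4*) and 1 without I53A #1 (*Kcnj10*). The last is the same fit as the I53S lines alone. Leaving out the mock line cannot change the mutant fit, because that line has its own block and OHT effect. A lone WT line adds nothing to the spread of the fit, so the mutant fit was the same whichever WT line was left out. Without a mutant line the share of all genes called also fell, to 0.931% to 1.18%. The mock count of 0 was 2 with the values as deposited (*Kcnk7* and *Kcnu1*), 4 when the filter was set at the median signal (*Kcna1*, *Kcnj6*, *Kcnk6* and *Kcnk7*, of 27 *Kcn* genes left) and 2 with the trended prior (*Kcnk6* and *Kcnk7*). With that prior 1 gene, *Kcnk6*, was also called for mutant minus WT and for mock minus WT changes. The cause was not tested. With the values as deposited, which shifted the median of all genes to -0.13 in mutant and -0.34 in mock cells, the median *Kcn* change was -0.0928 in mutant and -0.2565 in mock cells. The mock median was -0.0627 with the brightest probe set of each gene and -0.1089 with that stricter filter. Over the 23 named genes, no called change reversed under the alternatives run. Array medians centred in place of quantile normalization gave 7 calls. For this count, the mock counts, the count with no replicate block and the *Kcnk6* calls against WT changes, the share of all genes called is not given. These counts are therefore not read as gains or losses of the *Kcn* genes as a group. Most *Kcn* signals lay near or below the median of all values, where the spread between lines was larger.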
